A study of Arabidopsis thaliana with 9 samples.

Results

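Small RNAs of the Arabidopsis thaliana mutant rls6 were set against those of Col-0 (LUC), locus by locus. Normalized reads are read counts divided by a size factor per library. A locus was compared where 3 or more of the 6 libraries of these genotypes held 10 or more normalized reads, and 4540 of 37336 listed loci met this filter. They held 96.1% of the reads of the 6 libraries. Of the rest, 9883 loci had no read in them. A further 81 of the tested loci met the filter only through the rls6 libraries and 41 only through the Col-0 (LUC) libraries, so these had to differ. Of these, 74 and 26 were among the calls given here, beside 744 of the other 4418. Just inside the filter, 197 loci had 3 libraries at a value within 1 normalized read above it, the lowest of them at 10.03. Just outside, 158 loci came within 1 normalized read of it, the highest at 9.91.

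RNA was taken from plants, with no organ named, in 3 libraries of rls6, 3 of prors1 (LUC) and 3 of Col-0 (LUC). All were grown on soil for 25 days with 16 h of light and 8 h of dark, with no treatment named. The genotype labels do not say which allele rls6 carries, whether it holds LUC, or what LUC marks. The source label gives an age a day later for every sample and names both mutants in the form rbp-ko. Total RNA was separated on a gel and molecules of 17 to 30 nt were sequenced. The rls6 libraries held 649353 to 679773 reads over annotated loci and the Col-0 (LUC) libraries 613230 to 702303, and intervals given below for read ratios are 95% exact intervals that cover counting error only. The labels do not say whether each library had plants of its own. The p-values therefore set a difference against the spread between these libraries, which may not be that between plants. In the limma fit this spread was taken from all 9 libraries of the 3 genotypes. In such bulk samples, fewer cells of a kind and less RNA per cell cannot be told apart.

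Plant small RNAs of this size come from several routes. MicroRNAs are cut from hairpin transcripts by DCL1 and guide AGO1 to matching transcripts, and some cut transcripts are copied into double-stranded RNA by RDR6 and diced by DCL4 into secondary siRNAs. The trans-acting siRNA (TAS) loci are the best known source of such siRNAs. Other siRNAs come from transposons and repeats, most dense around centromeres, and guide RNA-directed DNA methylation. Reads from organelle genes can be pieces of longer organelle transcripts.

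Small RNA differed at 844 of the 4540 tested loci, 18.6%, by limma with Benjamini-Hochberg adjusted p below 0.05. Of these, 604 loci (13.3%) had more small RNA in rls6 and 240 (5.29%) had less. On the log2(normalized reads + 1) scale 318 loci (7%) passed with a rise of 2-fold or more and 58 (1.28%) with a fall of that size. All 3 rls6 libraries lay above all 3 Col-0 (LUC) libraries at 851 loci (18.7%) and below them at 662 (14.6%). The balance between rises and falls depended on scaling and on the test. Higher loci made up 71.6% of the limma calls with the authors' size factors, 51.1% with upper-quartile factors and 52.6% with library totals. With DESeq2, another test on the authors' size factors, they made up 82.4%. Over the tested loci the median log2 fold change was -0.02 with the authors' factors, -0.12 with upper-quartile factors and -0.15 with library totals. Leaving out Col-0 (LUC) replicate 3 left 140 falls, and leaving out rls6 replicate 2 left 153. Calls were more frequent where reads were more numerous, with 9.34% called among the 1135 loci with fewest reads and 31.8% among the 1135 with most.

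**Figure D1:**
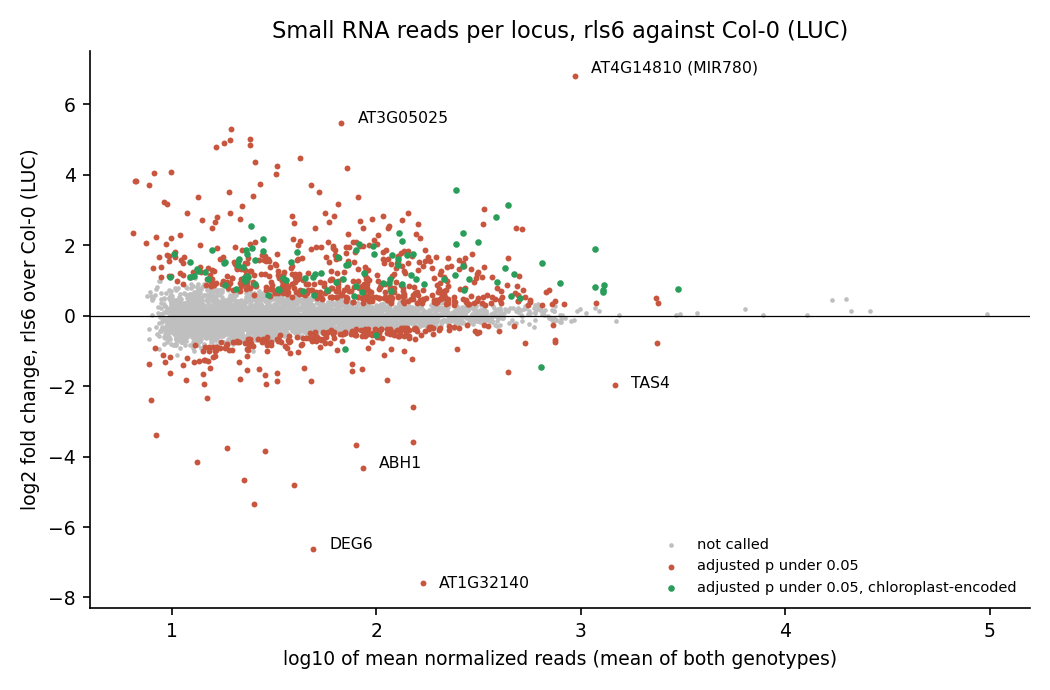
Each point is one of the 4540 tested loci, with the log10 of its mean normalized reads on the x axis and its log2 fold change (rls6 over Col-0 (LUC), on the log2(normalized reads + 1) scale) on the y axis. The 844 called loci are coloured, the chloroplast-encoded ones in green, and the widest changes run from AT4G14810 at 6.80 to AT1G32140 at -7.57.

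The largest rise was at AT4G14810, a locus of an uncharacterized protein on chromosome 4 (8504145 to 8504509 in TAIR10.1, plus strand) that faces the microRNA gene MIR780 on the minus strand. MIR780 yields a pair of mature microRNAs that lie next to each other in the hairpin, both within AT4G14810. In the RefSeq annotation MIR780 is described as targeting CHX18, which encodes a member of the cation/H+ exchanger family. The mature sequences and their best matching windows in CHX18 are shown because reads rose at both loci. All sequences are RefSeq's, TAIR10.1, written 5′ to 3′. Capitals mark the seed, bases 2 to 8, in the microRNAs and the bases with a Watson-Crick partner in the target windows.
miR780.1, chr4:8504166-8504186, minus strand: tCTAGCAGctgttgagcaggt
CHX18 window for miR780.1, chr5:16639292-16639312, minus strand: AtCTGCaCAACAGCTGtaAGA
miR780.2, chr4:8504145-8504165, minus strand: tTCTTCGTgaatatctggcat
CHX18 window for miR780.2, chr5:16639313-16639333, minus strand: ATGtCtGATATTCAtGAAGAt
Each CHX18 window pairs at 17 of 21 positions, with 2 G:U pairs and 2 unpaired bases, and both lie in the coding sequence, side by side. A score of 1 was given per unpaired base and 0.5 per G:U pair, and either strand was counted. Windows as good as these were found in 9 of 37051 nuclear loci for miR780.1 (0.0243%) and in 14 for miR780.2 (0.0378%). Both counts include AT4G14810 itself, and both include CHX18 and the overlapping locus AT5G41612, which hold the same windows. A matching window is a description of sequence and not of a cut site.

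AT4G14810 had 1945, 1737 and 1863 normalized reads in the rls6 libraries, 248, 176 and 237 in prors1 (LUC), against 14.2, 14.5 and 18.4 in Col-0 (LUC). The 3 genotypes did not overlap. The log2 fold change over Col-0 (LUC) was 6.80 ± 0.13 (SE, limma adjusted p = 1.77e-20), and over prors1 (LUC) it was 3.08 ± 0.13 (limma adjusted p = 9.6e-14). The read ratio to Col-0 (LUC) was 119, with an interval of 91.0 to 159. How strand was used in counting is not given in the sources used here, so reads of MIR780 and of AT4G14810 cannot be told apart.

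CHX18 (AT5G41610, chromosome 5, 16638302 to 16641933, minus strand) had 17.4, 26.4 and 30.7 normalized reads in rls6, 3.16, 0.964 and 2.05 in prors1 (LUC), against 2.51, 0 and 3.07 in Col-0 (LUC). Its small RNA was thus higher in each rls6 library than in any library of the other genotypes. The log2 fold change was 3.38 ± 0.50 over Col-0 (LUC) (limma adjusted p = 1.93e-05) and 3.11 over prors1 (LUC) (limma adjusted p = 7.28e-05). The long non-coding RNA locus AT5G41612 runs antisense through CHX18 and holds both windows on its opposite strand. It had 59.5, 49.0 and 40.6 normalized reads in rls6, 3.16, 4.82 and 6.15 in prors1 (LUC), against 0.836, 1.61 and 2.05 in Col-0 (LUC), a log2 fold change of 4.36 ± 0.35 (limma adjusted p = 2.04e-09). The 2 loci overlap, so their rises may rest on the same molecules. Both met the filter only through the rls6 libraries, so that they had to differ and their p-values are no independent support. CHX18 was singled out after its values were seen, from the annotation of MIR780. Of the other loci with windows as good, only AT2G15530, AT2G04090 and AT5G19097 met the filter, and the rest could not be compared. AT2G15530 had a log2 fold change of 0.27 (limma adjusted p = 0.53) and AT2G04090 had 0.25 (limma adjusted p = 0.445). AT5G19097 fell by 0.36 on the log2 scale (limma adjusted p = 0.0303).

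Of the 8 TAS loci tested, TAS4 fell, TAS3b rose and 6 did not pass the test, against 5.29% lower and 13.3% higher over all tested loci. TAS4 (AT3G25795, chromosome 3, 9417551 to 9418705, minus strand) is cut under the guidance of miR828 and yields siRNAs that target MYB genes of anthocyanin synthesis. The guide and its window in TAS4 are shown because TAS4 was the TAS locus that fell.
miR828, chr4:13847020-13847041, plus strand: tCTTGCTTaaatgagtattcca
TAS4 window for miR828, chr3:9417809-9417830, minus strand: TGGAATACTCATTTgAGCAAGA
The window pairs at 21 of 22 positions with 1 G:U pair. TAS4 was the only one of 37051 nuclear loci with a window this good (0.0027%).

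TAS4 had 629, 599 and 560.0 normalized reads in rls6, 475, 583 and 478 in prors1 (LUC), against 2101, 2406 and 2469.9 in Col-0 (LUC). Both mutants were below every Col-0 (LUC) library and overlapped each other. The log2 fold change was -1.96 ± 0.10 over Col-0 (LUC) (limma adjusted p = 1.34e-12) and 0.22 ± 0.10 over prors1 (LUC) (limma adjusted p = 0.133). Of the 4 MYB genes of this circuit none reached the filter. PAP1, MYB90 and MYB113, activators of anthocyanin genes, had 15, 4 and 10 reads over the rls6 libraries and 30, 9 and 42 over the Col-0 (LUC) libraries, and MYB114 had 0 in both. At these depths a read count of 0 allows up to 3 reads.

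TAS3b (AT5G49615), one of the sources of siRNAs against auxin response factors, had 147, 152 and 143 normalized reads in rls6, 102, 95.4 and 106 in prors1 (LUC), against 76.1, 93.2 and 89.2 in Col-0 (LUC). Its level was highest in all rls6 libraries, with a log2 fold change of 0.77 ± 0.12 over Col-0 (LUC) (limma adjusted p = 3e-05) and 0.54 over prors1 (LUC) (limma adjusted p = 0.00209). The 2 other loci of the same family did not pass, TAS3 at 0.02 ± 0.13 (limma adjusted p = 0.947) and TASIR-ARF at -0.19 ± 0.21 (limma adjusted p = 0.614). The loci cut under miR173 were TAS1A at 0.46 ± 0.18 (limma adjusted p = 0.0964), TAS1B at 0.07 ± 0.10 (limma adjusted p = 0.693), TAS1C at 0.12 ± 0.14 (limma adjusted p = 0.632) and TAS2 at 0.13 ± 0.14 (limma adjusted p = 0.582). TAS1A had 17760.3, 21509.5 and 18669 normalized reads in rls6 and 11776, 18581 and 12643 in Col-0 (LUC), which overlap. It passed without Col-0 (LUC) replicate 2 (limma adjusted p = 0.00909) and without prors1 (LUC) replicate 2 (limma adjusted p = 0.038), with the replicate number as a block (limma adjusted p = 0.00472), and in the fit on only the 6 libraries compared (limma adjusted p = 0.0498). It also passed with no filter on low values (limma adjusted p = 9.65e-108) although its libraries overlap, and this pass is not taken as a call.

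**Figure D2:**
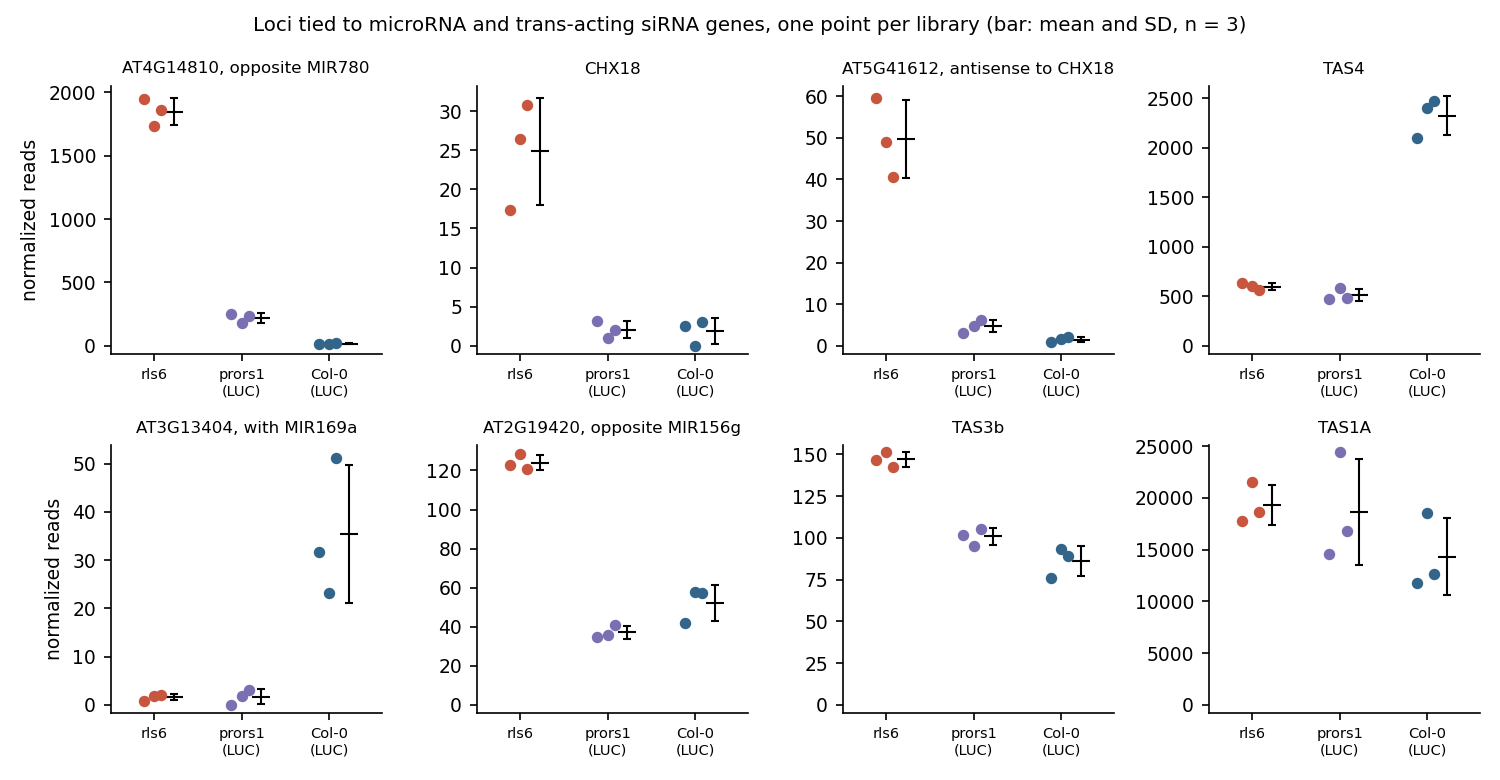
Normalized reads (y axis, each panel on its own linear scale) at 8 loci in the 3 libraries of rls6, prors1 (LUC) and Col-0 (LUC), with the mean and SD beside the points. The rls6 libraries stand above the rest at AT4G14810, CHX18, AT5G41612, AT2G19420 and TAS3b, both mutants stand below Col-0 (LUC) at TAS4 and AT3G13404, and the TAS1A panel shows overlap.

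The table lists none of the 326 annotated MIR genes under its own name, and microRNA genes could be followed only where they overlap a listed locus. Of 40 tested loci of this kind 9 rose (22.5%) and 4 fell (10.0%) in rls6, beside 13.3% and 5.29% of all tested loci. On the chromosome arms 22.2% rose and 6.04% fell, and of protein-coding loci 20.6% rose and 5.51% fell. The deepest fall was at AT3G13404, which holds MIR169a on its own strand, a member of the family that targets NF-YA transcription factor genes. It had 0.916, 1.88 and 1.98 normalized reads in rls6, 0, 1.93 and 3.08 in prors1 (LUC), against 31.8, 23.3 and 51.2 in Col-0 (LUC), so that few reads were left in either mutant. The read count was 21.7-fold lower than in Col-0 (LUC), with an interval of 9.02 to 67.9 (limma adjusted p = 2.87e-06).

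AT4G03038, a non-coding RNA locus over MIR826b and opposite MIR826a, had 13.7, 24.5 and 28.7 normalized reads in rls6, 10.5, 5.78 and 8.21 in prors1 (LUC), against 249, 207 and 378 in Col-0 (LUC). Its log2 fold change was -3.60 ± 0.26 over Col-0 (LUC), and rls6 stood above prors1 (LUC) by 1.32 (limma adjusted p = 0.000705). HTA4, a histone H2A gene opposite MIR841a, had 52.2, 51.8 and 42.6 normalized reads in rls6, 126, 122 and 113 in prors1 (LUC), against 191, 191 and 146 in Col-0 (LUC). Here rls6 was the lowest of the 3 genotypes, with log2 fold changes of -1.82 ± 0.13 over Col-0 (LUC) and -1.29 over prors1 (LUC) (limma adjusted p = 1.55e-07). AT4G24413, opposite MIR824, the microRNA of the MADS-box gene AGL16, had 444, 599 and 624 normalized reads in rls6, 612, 437 and 562 in prors1 (LUC), against 751, 1012 and 1034 in Col-0 (LUC), a log2 fold change of -0.75 ± 0.14 (limma adjusted p = 0.00033).

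Among the rises, AT2G19420 lies opposite MIR156g, a member of the family that targets SPL transcription factor genes and marks the juvenile phase. It had 123, 128 and 121 normalized reads in rls6, 34.7, 35.7 and 41.0 in prors1 (LUC), against 41.8, 57.8 and 57.4 in Col-0 (LUC). Every rls6 library was above every library of the other genotypes, and the log2 fold change over Col-0 (LUC) was 1.24 ± 0.15 (limma adjusted p = 1.27e-06). AT5G39370, a lectin-family gene over MIR3933, had 23.8, 13.2 and 11.9 normalized reads in rls6 and 0 in all 6 other libraries. Against a floor of 3 reads over the Col-0 (LUC) group it was at least 18.7-fold higher. AT4G22760, opposite MIR5017, had 48 reads against 1, a ratio of 51.9 with an interval of 8.88 to 2091. AT5G48280, opposite MIR2939 and MIR4243, had 56 reads against 4, a ratio of 15.1 with an interval of 5.59 to 57.5. AT3G45180, a ubiquitin-like gene over MIR8165, had a log2 fold change of 0.53 ± 0.10 (limma adjusted p = 0.000296). Other rises were those of AT2G25015 (MIR836, 0.69), AT5G44585 (MIR5628, 0.66) and UNE15 (MIR5996, 0.62) on the log2 scale. Of the loci over MIR genes, AT5G39370, AT4G22760 and AT5G48280 met the filter only through rls6 and AT3G13404 only through Col-0 (LUC), and so had to differ.

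Small RNA from the chloroplast genome was higher in rls6. Of 105 tested chloroplast-encoded loci 96 were higher in rls6 and 3 lower, that is 91.4% and 2.86%, with a median log2 fold change of 1.12. The number higher stayed between 86 and 97 when any one library was left out. Chloroplast-encoded loci took 4.59%, 4.49% and 4.59% of the reads in the rls6 libraries, 4.25%, 3.45% and 3.84% in prors1 (LUC), against 2.50%, 2.44% and 2.43% in Col-0 (LUC). The shares of rls6 and Col-0 (LUC) did not overlap (two-sided exact permutation test, p = 0.1, the smallest that 3 against 3 libraries allow, and 0.275 after adjustment over 11 classes). Without AT3G15920, the locus with most reads, the difference in share was 2.45 percentage points, against 2.10 with it.

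The 3 chloroplast loci with the largest rises had no gene name in the annotation used here. ATCG00660 had 456, 462 and 443 normalized reads in rls6, 330.4, 301 and 309.7 in prors1 (LUC), against 40.1, 37.0 and 35.9 in Col-0 (LUC), a log2 fold change of 3.56 ± 0.10 over Col-0 (LUC) (limma adjusted p = 4.57e-17). It was also higher than in prors1 (LUC), by 0.53 (limma adjusted p = 0.00046). ATCG00340 had 705, 792 and 873 normalized reads in rls6, 845, 385 and 747 in prors1 (LUC), against 82.8, 92.4 and 88.1 in Col-0 (LUC). ATCG00020 had 738, 563 and 714 in rls6, 583, 425 and 621 in prors1 (LUC), against 101, 81.9 and 100.4 in Col-0 (LUC). Both were above every Col-0 (LUC) library, and neither passed the test against prors1 (LUC) (limma adjusted p = 0.223 for ATCG00340 and 0.112 for ATCG00020). The falls, named after their values were seen, carry neighbouring identifiers. ATCG00700 averaged 337 normalized reads in rls6 and 938 in Col-0 (LUC), ATCG00690 47.2 and 92.6, and ATCG00710 80.4 and 119. Against prors1 (LUC), 14 of the 105 loci were higher in rls6, 13.3%, beside 12.3% of all tested loci.

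Of 31 tested mitochondrion-encoded loci 1 passed, the fall at ATMG00140, with 5.50, 5.65 and 4.96 normalized reads in rls6 and 10.9, 11.2 and 11.3 in Col-0 (LUC). That is 3.23% lower, beside 5.29% of all tested loci, and ATMG00140 met the filter only through Col-0 (LUC). The median log2 fold change of the 31 loci was -0.05. The light-harvesting and small Rubisco subunit genes of the nucleus had 3 tested members of 19, and 2 rose, beside 13.3% higher over all tested loci. CAB3, which encodes a light-harvesting protein of photosystem II, had 85.2, 81.1 and 78.3 normalized reads in rls6, 961, 1229 and 920.0 in prors1 (LUC), against 4.18, 4.02 and 1.02 in Col-0 (LUC). The 3 genotypes did not overlap at CAB3, with prors1 (LUC) the highest by far. The log2 fold change of rls6 was 4.46 ± 0.24 over Col-0 (LUC) (limma adjusted p = 3.43e-12) and -3.64 ± 0.24 over prors1 (LUC) (limma adjusted p = 1.4e-10), and CAB3 had 57.4% of its 21-base windows unique in the genome. CAB3 met the filter only through rls6 among the 6 libraries compared. LHCA2, a photosystem I antenna gene, had 38.5, 31.1 and 33.7 normalized reads in rls6, 13.7, 13.5 and 10.3 in prors1 (LUC), against 17.6, 8.03 and 17.4 in Col-0 (LUC). Its rise, 1.28 ± 0.28 on the log2 scale over Col-0 (LUC) (limma adjusted p = 0.00192), was also seen over prors1 (LUC) at 1.40 (limma adjusted p = 0.000943).

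The calls at nuclear loci were counted by annotation class and by region. Of 1397 tested protein-coding loci 288 were higher and 77 lower, and of 315 long non-coding RNA loci 89 were higher and 24 lower. Of 2652 loci annotated as pseudogenes, a class that may include transposon remnants, 124 were higher and 132 lower. Over all tested loci 13.3% were higher and 5.29% lower, and the falls at protein-coding loci (5.51%), at pseudogenes (4.98%) and near the centromeres were close to that share. On the chromosome arms 330 of 1489 loci were higher (22.2%) and 90 lower (6.04%). Within 3 Mb of the centromere positions used here 178 of 2915 were higher (6.11%) and 146 lower (5.01%). The medians were 0.11 on the arms and -0.09 near the centromeres on the log2 scale, and with library totals -0.02 and -0.21, beside -0.15 for all tested loci. Falls near the centromeres numbered 346 with upper-quartile factors and 44 with DESeq2. They numbered 86 without Col-0 (LUC) replicate 1, 79 without Col-0 (LUC) replicate 3, 89 without rls6 replicate 2 and 94 without rls6 replicate 3. Pseudogene falls numbered 79, 67 and 76 without the first 3 of these libraries. Without Col-0 (LUC) replicate 3 there were 48 falls at protein-coding loci and 59 on the arms. Loci near centromeres are also more repetitive, with a median of 75.4% of 21-base windows found once in the genome against 94.2% on the arms. Of 2350 nuclear loci with at least 80% such windows 16.9% were higher and 6.51% lower. Of 2054 with fewer, 5.40% were higher and 4.04% lower. The part of repeats in the difference between arms and centromeres was not tested.

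**Figure D3:**
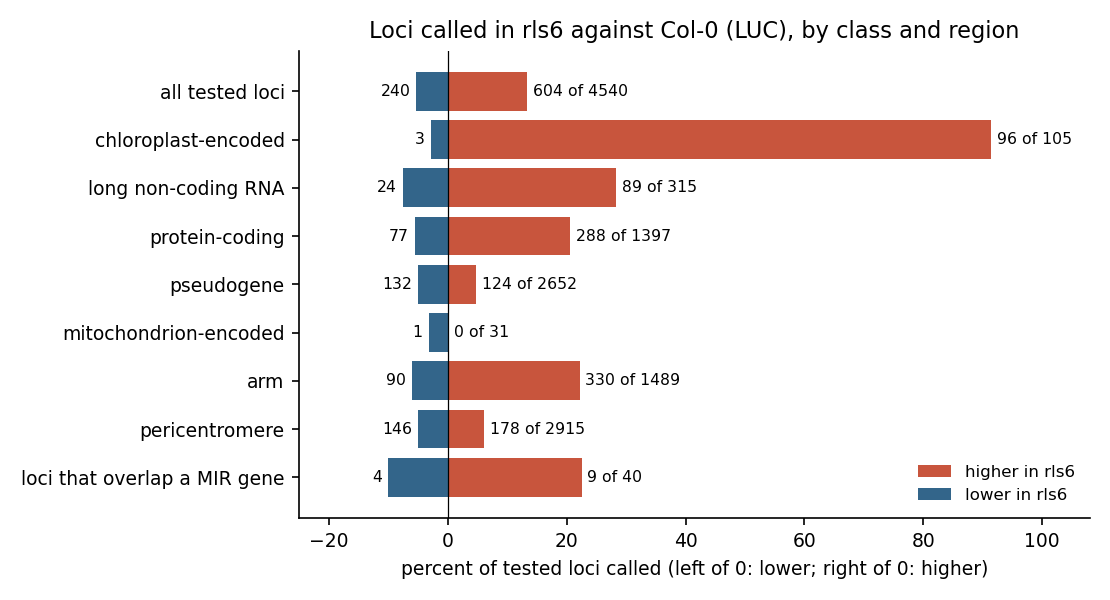
Percent of tested loci called higher (right of 0) and lower (left of 0) in rls6 against Col-0 (LUC), by annotation class, region and overlap with MIR genes, with the number of loci at the bar ends. Chloroplast-encoded loci stand at 91.4% higher, against 13.3% of all tested loci.

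The deepest fall of all tested loci was at AT1G32140. This F-box gene on chromosome 1 (11562742 to 11564833, minus strand) had 1.83, 0.942 and 0 normalized reads in rls6, 215, 215 and 231 in prors1 (LUC), against 349, 302 and 359 in Col-0 (LUC). It was nearly empty in rls6 and well filled in the other genotypes, with a log2 fold change of -7.57 ± 0.24 over Col-0 (LUC) and -6.97 ± 0.24 over prors1 (LUC) (limma adjusted p = 7.09e-15). F-box proteins choose substrates for ubiquitin ligases. AT4G12820, another F-box gene, had 1.83, 0 and 0.991 normalized reads in rls6, 7.37, 6.75 and 7.18 in prors1 (LUC), against 49.3, 43.4 and 40.0 in Col-0 (LUC), with a log2 fold change of -2.18 over prors1 (LUC) (limma adjusted p = 0.000159). AT4G10160, a RING-type gene, had 11.9, 9.42 and 8.92 normalized reads in rls6, 41.0, 22.2 and 41.0 in prors1 (LUC), against 203, 89.2 and 152 in Col-0 (LUC). These 3 loci were lowest in rls6 without overlap.

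DEG6, a DegP-type protease gene, had 0 reads in rls6 and 95.3, 81.1 and 119 normalized reads in Col-0 (LUC), at least 102-fold lower against a floor of 3 reads over the rls6 group, and 73.5% of its 21-base windows occur once in the genome. AT1G70080, a terpenoid cyclase gene, had 1 read in rls6 and 171 in Col-0 (LUC), 158-fold lower with an interval of 28.0 to 6286. LCR26, which encodes a small cysteine-rich protein, had 2 reads against 87. At all 3 of these loci prors1 (LUC) had at most 1 read over its libraries. The long non-coding RNA loci AT3G51238 and AT2G06995 had 6 and 9 reads in rls6 against 261 and 187 in Col-0 (LUC). Other falls were those of the hydrolase gene AT3G23570 at -2.59 ± 0.21, the RING-type gene AT3G43750 at -2.33 ± 0.46 and the F-box-associated gene AT3G03405 at -1.94 ± 0.32 on the log2 scale, and none of these passed the test against prors1 (LUC) (limma adjusted p of 0.877 for AT3G23570, 0.97 for AT3G43750 and 0.0727 for AT3G03405). AT1G32140, AT4G12820, DEG6, AT1G70080, LCR26, AT3G51238, AT2G06995, AT3G43750 and ABH1 met the filter only through Col-0 (LUC), and so had to differ.

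ABH1 (AT2G13540, chromosome 2, 5636884 to 5643066) encodes the larger protein of the complex that binds mRNA caps in the nucleus and takes part in splicing and in microRNA processing. It had 5.50, 6.60 and 9.91 normalized reads in rls6, 95.8, 100.2 and 67.7 in prors1 (LUC), against 157, 182 and 153 in Col-0 (LUC). The genotypes stood in this order with no overlap, with log2 fold changes of -4.34 ± 0.20 over Col-0 (LUC) (limma adjusted p = 2.45e-13) and -3.43 ± 0.20 over prors1 (LUC) (limma adjusted p = 1.57e-11). ABH1 was the one member called among 6 tested of 18 genes of the microRNA and post-transcriptional silencing pathways, 16.7%, beside 18.6% called over all tested loci. AGO1 had -0.03 (limma adjusted p = 0.939), AGO2 0.18 (limma adjusted p = 0.524), AGO3 0.28 (limma adjusted p = 0.541), DCL1 -0.21 (limma adjusted p = 0.614) and DCL4 0.04 (limma adjusted p = 0.951), each as a log2 fold change of small RNA reads, which do not measure the mRNA.

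Large rises at single loci included coding and non-coding ones. The long non-coding RNA locus AT3G05025 (chromosome 3, 9707053 to 9707354) had 130.1, 137 and 129.8 normalized reads in rls6, 5.26, 4.82 and 4.10 in prors1 (LUC), against 1.67, 2.41 and 2.05 in Col-0 (LUC). The long non-coding RNA locus AT1G06417 had 32.1, 38.6 and 35.7 normalized reads in rls6, 0 in all prors1 (LUC) libraries, against 0.836, 0 and 0 in Col-0 (LUC). Both were near empty outside rls6. AT5G56070, an uncharacterized gene, had 137, 135 and 137 normalized reads in rls6, 7.37, 13.5 and 14.4 in prors1 (LUC), against 5.02, 8.84 and 6.15 in Col-0 (LUC). AT1G61320, annotated with FBD and leucine-rich repeat domains, had 71.5, 63.1 and 54.5 normalized reads in rls6, 9.47, 9.64 and 13.3 in prors1 (LUC), against 1.67, 2.41 and 3.07 in Col-0 (LUC). AT2G02440, uncharacterized, had 59.5, 68.8 and 56.5 in rls6, 4.21, 2.89 and 4.10 in prors1 (LUC), against 3.34, 1.61 and 4.10 in Col-0 (LUC). AT2G36810, an ARM-repeat gene, had 103 reads against 1, a ratio of 111 with an interval of 19.5 to 4438. All of these passed the test against prors1 (LUC) too, with log2 fold changes of 4.54, 5.18, 3.48, 2.45, 3.73 and 3.00 in the order named (limma adjusted p at most 1.34e-05).

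Other large rises were also present in prors1 (LUC). AT2G19200, a pseudogene, had 51.3, 40.5 and 50.5 normalized reads in rls6, 69.5, 34.7 and 63.6 in prors1 (LUC), against 1.67, 0.803 and 0 in Col-0 (LUC). The mutants overlapped there (-0.18 ± 0.34 for rls6 over prors1 (LUC) on the log2 scale, limma adjusted p = 0.779). At the pseudogene AT3G56275 the rls6 libraries were below the prors1 (LUC) libraries, at 32.1, 33.9 and 40.6 against 49.5, 56.9 and 64.6 normalized reads, and the difference missed the threshold (-0.66 ± 0.31, limma adjusted p = 0.15). The long non-coding RNA locus AT1G07887 had 44.9, 53.7 and 53.5 normalized reads in rls6, 114, 109.9 and 83.1 in prors1 (LUC), against 1.67, 3.21 and 4.10 in Col-0 (LUC), with rls6 below prors1 (LUC) by a difference of -0.99 (limma adjusted p = 0.00507). Of the loci with large rises, AT3G05025, AT1G06417, AT5G56070, AT1G61320, AT2G02440, AT2G36810, AT2G19200, AT3G56275 and AT1G07887 met the filter only through rls6, and so had to differ from Col-0 (LUC).

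**Figure D4:**
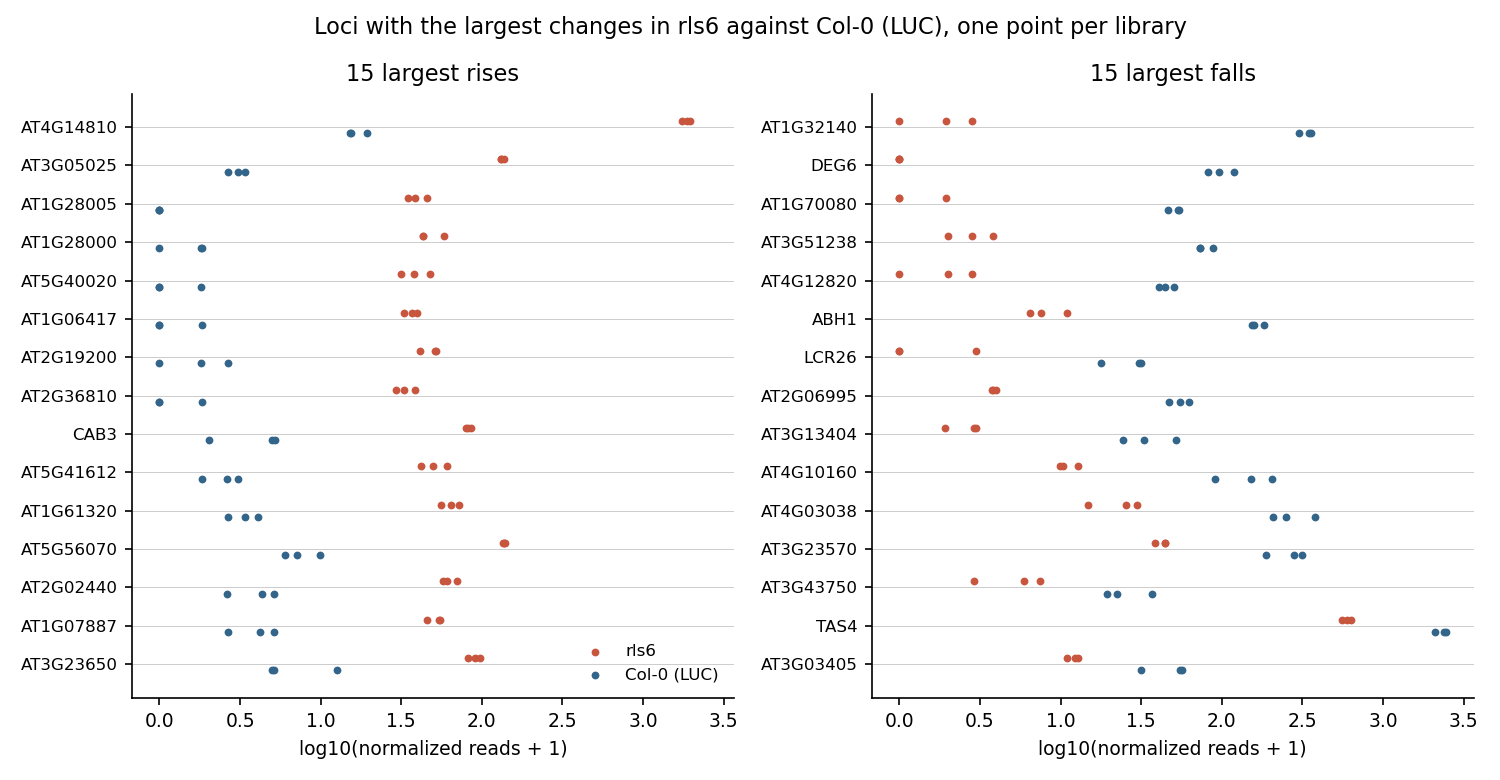
The log10 of normalized reads plus 1 (x axis) in each rls6 and Col-0 (LUC) library at the 15 loci with the largest rises and the 15 with the largest falls, by log2 fold change among called loci with a mean of at least 20 normalized reads in the higher genotype. The libraries of the genotypes do not overlap at any of them, which was a condition of their choice.

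Some rises came in runs of neighbours. Runs of at least 3 neighbouring tested loci, no more than 20 kb apart and called in one direction, numbered 12. They held 38 of the 844 called loci. Of the runs 11 were higher in rls6, and 71.6% of all called loci were higher. Whether runs were more frequent than the share of loci called would give was not tested. One of the 2 runs of 4 spanned 15.5 kb of chromosome 3, from 8496440 to 8511982. It held AT3G23633 (F-box-associated), the pseudogene AT3G23645, AT3G23650 (kinase-like) and the long non-coding RNA locus AT3G04585. AT3G04585 had 125, 121 and 106 normalized reads in rls6, 10.5, 11.6 and 10.3 in prors1 (LUC), against 13.4, 12.9 and 10.2 in Col-0 (LUC). AT3G23650 had 96.2, 89.5 and 81.3 in rls6, 5.26, 1.93 and 6.15 in prors1 (LUC), against 11.7, 4.02 and 4.10 in Col-0 (LUC). At both, rls6 stood alone while the other genotypes overlapped.

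The other run of 4 spanned 42.1 kb of chromosome 5, from 15982173 to 16024316. It held AT5G39920, annotated as a pre-mRNA cleavage complex protein, the pseudogenes AT5G39955 and AT5G39995 and the thaumatin-family gene AT5G40020, with log2 fold changes of 2.12, 1.97, 2.91 and 4.98. AT5G40020 had 46.7, 36.8 and 30.7 normalized reads in rls6, 2.10, 0 and 1.03 in prors1 (LUC), against 0, 0.803 and 0 in Col-0 (LUC). A run of 3 on chromosome 1 held AT1G28000, a pentatricopeptide repeat (PPR) gene, AT1G28005 and the pseudogene AT1G28002. AT1G28000 and AT1G28005 overlap on opposite strands, and AT1G28005 had 122 reads in rls6, 36 in prors1 (LUC) and none in Col-0 (LUC). Against the floor of 3 reads it was at least 43.9-fold higher than in Col-0 (LUC). The 3 pectin lyase-like genes AT5G07410, AT5G07420 and AT5G07430 rose by 0.86, 1.37 and 1.07 on the log2 scale, and the run of AT1G33190, AT1G06657 and AT1G06663 by 1.60, 1.15 and 1.05. In the runs, AT3G23633, AT3G23645, AT5G39995, AT5G40020, AT1G28000, AT1G28005 and AT5G07420 met the filter only through rls6. AT1G06657 and AT1G06663 overlap, as AT1G28000 and AT1G28005 do, so each of these runs holds an overlapping pair. Without AT1G28002 and AT1G06663, whose calls were lost in some settings given below, these runs would not reach 3 loci. Members of a run can share reads where they overlap or resemble each other.

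Where rls6 differed most from prors1 (LUC) the loci were mostly ones already named. In that comparison 792 of 4540 loci passed, 17.4%, with 558 higher (12.3%) and 234 lower (5.15%) in rls6, and it uses the same rls6 libraries as the comparison with Col-0 (LUC). CXIP2, a glutaredoxin-family gene, had 22.9, 17.0 and 18.8 normalized reads in rls6, 1.05, 0 and 0 in prors1 (LUC), against 0, 0.803 and 0 in Col-0 (LUC). The pseudogene AT5G41494 had 16.8 to 24.5 in rls6, 1.05, 0 and 0 in prors1 (LUC), against 5.02, 0 and 3.07 in Col-0 (LUC). The pseudogene AT3G23645 had 17.4, 17.9 and 15.9 in rls6, 0 in all prors1 (LUC) libraries, against 2.51, 0 and 1.02 in Col-0 (LUC). All 3 met the filter only through rls6. At these loci prors1 (LUC) and Col-0 (LUC) overlapped and rls6 lay above both.

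**Figure D5:**
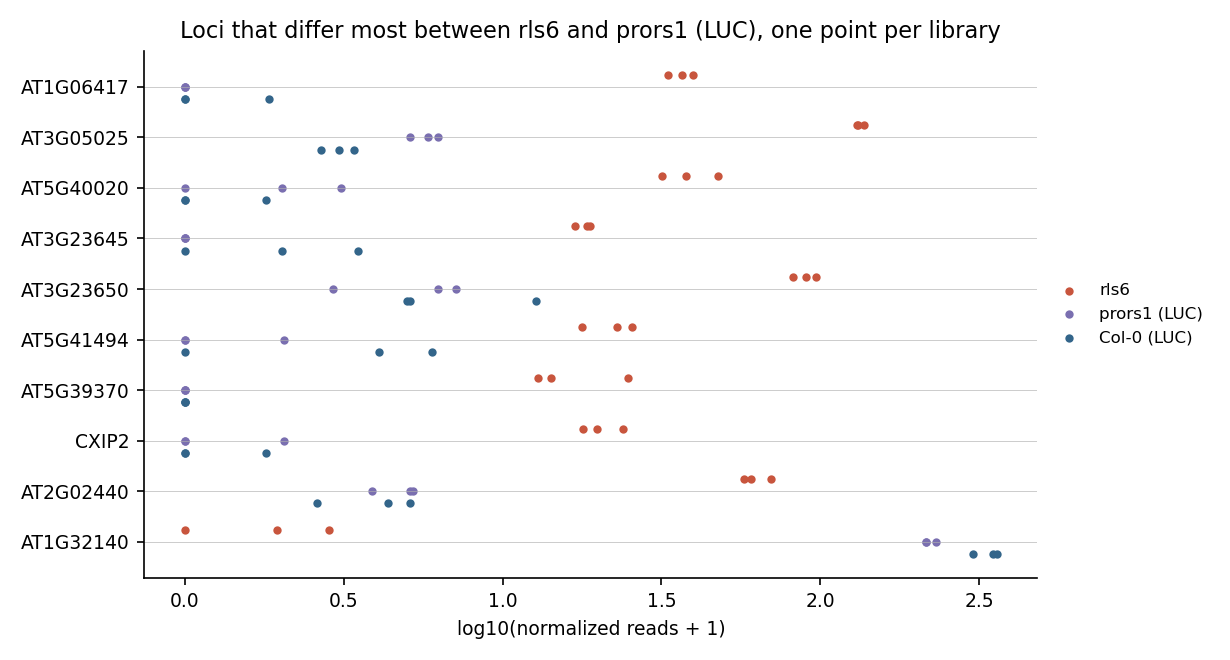
The log10 of normalized reads plus 1 (x axis) in every library of rls6, prors1 (LUC) and Col-0 (LUC) at the 10 loci called in rls6 against Col-0 (LUC) whose log2 fold change over prors1 (LUC) was widest. The rls6 libraries are the highest at 9 of these loci and the lowest at AT1G32140.

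Some protein-coding genes are known to yield secondary siRNAs. Of 20 such PPR genes 16 were tested, and 1 passed, AT1G62914, with 111, 111 and 129.8 normalized reads in rls6 and 136, 161 and 156 in Col-0 (LUC). That is 6.25% lower, beside 5.29% of all tested loci. Of 26 nucleotide-binding leucine-rich repeat (NLR) disease resistance genes 7 were tested and 2 rose, beside 13.3% higher over all tested loci. AT5G38850, a TIR-type NLR gene, had 2650.4, 2725 and 2791 normalized reads in rls6, 2567, 2577 and 2724 in prors1 (LUC), against 1902, 1774 and 2122 in Col-0 (LUC), a log2 fold change of 0.50 ± 0.09 (limma adjusted p = 0.000372). AT5G63020, a coiled-coil NLR gene, had a log2 fold change of 0.66 ± 0.19. Of the 3 tested auxin receptor genes AFB2 passed, beside 5.29% lower over all tested loci, with 91.6, 107 and 105 normalized reads in rls6, 73.7, 77.1 and 79.0 in prors1 (LUC), against 129.6, 121 and 149 in Col-0 (LUC). TIR1 had -0.70 ± 0.31 (limma adjusted p = 0.132) and AFB3 -0.04 ± 0.13 (limma adjusted p = 0.883).

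The flowering-time list had 3 tested members of 20. FWA, a homeobox gene silenced by DNA methylation, had a log2 fold change of 0.50 ± 0.26 (limma adjusted p = 0.209), the chromatin gene FVE 0.17 ± 0.16 (limma adjusted p = 0.557), and SDC, an F-box gene under the same kind of silencing, -0.05 ± 0.19 (limma adjusted p = 0.907). No gene of the RNA-directed DNA methylation list reached the filter, and its 25 members together had 24.7 to 37.7 normalized reads per library in rls6 and 27.6 to 34.5 in Col-0 (LUC). PRORS1 (AT5G52520, named OVA6 in the annotation), the organellar prolyl-tRNA synthetase gene, had 6.41, 6.60 and 6.94 normalized reads in rls6, 8.42, 4.82 and 3.08 in prors1 (LUC), against 0, 0.803 and 0 in Col-0 (LUC). RBP45D had 0 reads in rls6 and Col-0 (LUC). These reads are not mRNA and do not check the genotypes. The RBP45 and RBP47 genes together had 0 to 5.95 normalized reads per library in rls6 and 0.803 to 5.12 in Col-0 (LUC). The floral organ genes had 6.94 to 13.7 in rls6 and 3.07 to 7.23 in Col-0 (LUC), and the root hair genes 0 to 1.88 in rls6 and 0 to 0.836 in Col-0 (LUC). A part of differing organ content in the results was not tested.

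The 8 loci with most reads in the 6 libraries did not pass the test. AT3G15920 took 13.0% to 17.4% of the reads of an rls6 library and 13.6% to 20.4% of a Col-0 (LUC) library, and had a log2 fold change of 0.05 ± 0.27 (limma adjusted p = 0.939). The others were AT1G06227, CPA, AGO2, TAS1A, TAS1C, TAS2 and TAS3. AT3G15920 and AT1G06227 overlap annotated snoRNA genes. CPA, an actin-capping protein gene that overlaps a tRNA gene, had 19682, 25770.5 and 21752 normalized reads in rls6 and 10263, 16404 and 25146 in Col-0 (LUC), and it passed without Col-0 (LUC) replicate 3 (limma adjusted p = 0.00341). With no filter on low values AT3G15920, CPA, AGO2, TAS1A, TAS1C and TAS2 passed as well. That fit covered 27453 loci, most of them below the filter used here. AT3G15920 passed there at the same log2 fold change of 0.05 (limma adjusted p = 1.68e-05). Libraries of the genotypes overlapped at all of these loci but TAS2, and these passes are not taken as calls.

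Calls of 10 of the loci named by rule were lost with single libraries left out. All 10 were also lost with DESeq2 (DESeq2 adjusted p from 0.0548 to 0.239). No filter on low values, upper-quartile factors, library totals and limma without a trend each lost some of them as well. The edgeR test and the fit on only the 6 libraries compared each lost ATMG00140. AT1G62914 was lost without Col-0 (LUC) replicate 2 or 3 or rls6 replicate 1 or 2 (limma adjusted p from 0.102 to 0.13), and AFB2 without Col-0 (LUC) replicate 1 or 3 or rls6 replicate 1 (limma adjusted p from 0.0559 to 0.15). AT5G63020 was lost without Col-0 (LUC) replicate 1 or 2 or rls6 replicate 2 (limma adjusted p from 0.0593 to 0.117). ATMG00140 was lost without prors1 (LUC) replicate 1 or any one library of rls6 or Col-0 (LUC) (limma adjusted p from 0.0539 to 0.113). AT2G25015 was lost without Col-0 (LUC) replicate 1 or 2 or rls6 replicate 1 or 2 (limma adjusted p from 0.0581 to 0.164). AT5G44585 was lost without Col-0 (LUC) replicate 1 or 3 or rls6 replicate 1 (limma adjusted p from 0.0674 to 0.0891). UNE15 was lost without Col-0 (LUC) replicate 1 or 3 or rls6 replicate 1 or 2 (limma adjusted p from 0.0536 to 0.128). In the runs, AT1G28002 was lost without any one library of rls6 or without Col-0 (LUC) replicate 1 or 3 (limma adjusted p from 0.0555 to 0.195), and AT1G06663 without Col-0 (LUC) replicate 2 or 3 or rls6 replicate 2 or 3 (limma adjusted p from 0.0641 to 0.112). The non-coding RNA locus AT1G07977, with a log2 fold change of 0.80, was lost without Col-0 (LUC) replicate 1 or 3 or rls6 replicate 2 (limma adjusted p from 0.053 to 0.102). The other 58 called loci named by rule passed under each of the 22 alternative settings that tested them. Many of them were named for large changes without overlap in these same data, and some met the filter only through a single genotype. Their passing is therefore no independent support and does not stand for the calls as a whole. DESeq2 called 574 of all 844 called loci. Besides those whose overlap is given above, AT3G13404, AT4G03038, AT3G51238, AT3G23570, AT1G07887, AT3G45180, AT5G44585, AT5G63020, UNE15, TAS1C, RBP45D, AT1G06657 and AT1G06663 also overlap another listed locus, with which reads may be shared.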

How the data were processed

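Small RNA libraries of 3 genotypes, 3 each, were analysed. Tools named by the submitters' processing notes are featureCounts, Bowtie2, FastQC and Trimmomatic, and the build named is TAIR10. The sources used here do not give versions or the handling of strand and of reads with several matches. The deposited signal values are whole multiples of 1 step per library, that is read counts that the authors divided by a size factor, called normalized reads. Whole reads were recovered for 100% of values within a relative tolerance of 1e-06, and were used for ratios, edgeR and DESeq2.

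Members and gene lists were chosen with earlier results of these data known. The log2(normalized reads + 1) values of the 9 libraries were fitted on genotype alone with limma 3.58.1 under R 4.3.3, using its trend option, and p-values were adjusted over 4540 loci. Replicates differed beyond sampling noise. The fit was also run on simulated counts with the same extra spread at all loci and with known changes of at least 2-fold. That run does not check smaller changes, the scaling, or a spread that differs between loci. Classes, overlaps and positions came from RefSeq TAIR10.1, which matched 37051 loci. The centromere positions used were 15, 4, 14, 4 and 12 Mb on chromosomes 1 to 5, with 3 Mb on each side. Named loci were the 15 largest rises and falls with a mean of at least 20 normalized reads in the higher genotype and no overlap, the 3 largest changes per class, the 8 loci with most reads, TAS loci, called list members and MIR overlaps, the longest runs, PRORS1 and RBP45D, and the 10 widest differences from prors1 (LUC). Alternatives covered the pseudocount, filters, scalings, edgeR 4.0.16, DESeq2 1.42.0, a replicate block, single libraries left out and, chosen after seeing the data, loci with at least 80% unique 21-base windows.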

Additional observations from a re-analysis of the deposited data

How the results depend on the processing

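Of 68 called loci named by rule, 58 were called under each of 22 settings that tested them and 0 changed direction. Many of the 68 were named for large changes in these same data, so these counts do not stand for the calls as a whole. The counts of falls moved most. Loci lower in rls6 than in Col-0 (LUC), 240 in the fit reported, numbered 490 with upper-quartile factors, 416 with library totals and 101 with DESeq2, and 140 to 266 with single libraries left out. Falls within 3 Mb of the centromere positions, reported as 146, numbered 346, 279 and 44 under the same 3 settings, 85 with no filter, 86 among loci with at least 80% unique windows, and 79 to 162 with single libraries left out. Loci at least 2-fold lower, reported as 58, numbered 118 with no filter and 30 with at least 30 normalized reads. DESeq2 called 478 loci in rls6 against prors1 (LUC), where limma called 792. Falls at pseudogenes, reported as 132, numbered 67 with no filter, 341 with upper-quartile factors, 277 with library totals, 85 without a trend, 36 with DESeq2 and 74 among unique loci. DESeq2 gave 41 falls at protein-coding loci against 77 reported and 55 on the arms against 90, upper-quartile factors gave 140 on the arms, and with no filter long non-coding RNA falls numbered 37 against 24. The causes were not tested, except that a stricter filter tests fewer loci, as does the setting of loci with at least 80% unique windows. That setting tested 2350 loci and called 168 of them lower, where the reported fit called 153 of the same loci lower. At loci with few reads small changes may have been missed at this depth. Among the 1135 loci with fewest reads, 72 were called higher, 62 of them by at least 2-fold. In the same group 34 were called lower, 23 of them by at least 2-fold.

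Replicate numbers were not taken to pair the libraries: same-numbered rls6 and Col-0 (LUC) libraries had deviations correlated at 0.0785, 0.142 and 0.0597, though each rls6 library correlated best with its own number. With a replicate block 962 loci were called, 654 higher and 308 lower, including all 844 reported, a block result that rests on the numbers alone.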

Other observations

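Families read from the annotated product names, chosen after the data were seen, showed both directions. Of 66 tested loci with F-box in the product name, F-box-associated ones included, 14 were higher (21.2%) and 8 lower (12.1%) in rls6. Among 54 loci with kinase in the name, which need not all be protein kinases, 15 were higher (27.8%) and 7 lower (13.0%). Among 16 RING-type loci 2 were higher (12.5%) and 4 lower (25%). Of 17 PPR loci 4 were higher (23.5%) and 1 lower (5.88%), and of 19 disease resistance loci 3 (15.8%) and 1 (5.26%). Over all tested loci 13.3% were higher and 5.29% lower, and over protein-coding loci 20.6% and 5.51%. The log2 fold change was -7.57 at the F-box gene AT1G32140, -3.68 at the RING-type gene AT4G10160 and 3.71 at the kinase-like gene AT3G23650.

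Counts near centromeres were also taken by chromosome. Near the centromere of chromosome 4, 38 of 577 tested loci were higher and 57 lower (9.88%), and on chromosome 3 the numbers were 31 higher and 15 lower of 661 (2.27%), and on chromosome 5 they were 25 and 17 of 543 (3.13%). The difference between chromosomes was not tested.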
